A study of Caenorhabditis elegans with 6 samples.

Results

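Of the 6 small RNA libraries in the series, the 3 from *eggd-1* mutant *C. elegans* were used to ask which small RNAs stay clonable after oxidation with sodium periodate. In 1 library the RNA of *eggd-1* null animals was treated with sodium periodate before cloning, and it was set against 2 libraries of untreated RNA from *eggd-1* null animals. All 3 carry the loss of *eggd-1* (also *mip-1*, III:4793086-4795423, WBcel235), a gene that anchors germ granules at the nuclear envelope of germ cells. The study describes its allele as a deletion of the full open reading frame, and the animals as synchronized adults, so RNA of soma and germ line was pooled. The labels do not say whether the *eggd-1* libraries share the *pgl-1::RFP* background that they give for the untreated control libraries. The other 3 libraries (1 oxidized N2 and 2 untreated *pgl-1::RFP*) are given only beside a few values. Those strains differ, so no difference between the genotypes was tested.

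Periodate attacks the free 2′ and 3′ hydroxyls at the 3′ end of an RNA, and the oxidized end is then poorly ligated. The methyltransferase HENN-1 places a methyl group on the 2′ oxygen of some small RNAs and so protects them. In *C. elegans* these are the piRNAs bound by the Argonaute PRG-1, and the 26G-RNAs bound by ERGO-1 in the oogenic germ line and embryo. The 26G-RNAs bound by ALG-3 and ALG-4 in the spermatogenic germ line, the 22G-RNAs made by RNA-dependent RNA polymerases, and most miRNAs bound by ALG-1 and ALG-2 end in unmodified hydroxyls.

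The tables hold read counts per annotated entry, and the same values as genome-mapped reads scaled to 1000000 per library (RPM), for piRNAs, miRNAs, 22G-RNAs, 26G-RNAs and reads on transposon consensus sequences. The oxidized library had 19457486 genome-mapped reads, and the untreated libraries had 21883625 and 23452187. Reads assigned to the counted small RNAs made up 88.4% of the oxidized library, against 62.3% and 62.7% of the untreated libraries. A count of 0 allows up to 3 reads, which is 0.154 RPM in the oxidized library and 0.137 and 0.128 RPM in the untreated libraries. Such limits and all intervals cover counting error only. The untreated libraries held the miRNAs of several tissues, such as miR-1-3p of muscle (11136 and 11828 RPM) and lsy-6-3p of a gustatory neuron (8.48 and 7.40 RPM), and piRNAs, which mark the germ line.

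With 1 oxidized library there is no test. Each entry is described by its RPM in the 3 libraries and by the oxidation ratio, the oxidized RPM divided by the mean of both untreated RPM values. The SD of a ratio is the spread over the 2 untreated libraries alone, since nothing measures the spread of the oxidation itself. Because RPM is a share of a library, a ratio shows how an RNA fared relative to the rest. Scaling to the reads assigned to features other than piRNAs (1.93% of the oxidized library, against 55.7% of each untreated library) multiplies every ratio by 28.8. Ratios above 0.0347 then lie above 1, while ratios between entries stay as they are.

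The piRNAs, which guide PRG-1 to foreign and self transcripts in the germ line, were the only kind that filled most of the oxidized library. They summed to 864314 RPM in oxidized *eggd-1*, against 65441 and 69888 RPM in untreated *eggd-1*, a ratio of 12.8 ± 0.594. In the oxidized library 86.4% of genome-mapped reads were piRNAs (exact 95% interval 86.42% to 86.45%). A library made of piRNA reads alone would have given a ratio of 14.8. The 26G-RNAs were the other kind with a higher total, at 6039.5 RPM in oxidized *eggd-1* against 2195 and 2061 RPM in untreated *eggd-1* (ratio 2.84 ± 0.127). That ratio was 4.501-fold below the piRNA ratio.

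miRNAs, 22G-RNAs and transposon reads had lower totals in the oxidized library. miRNAs summed to 2748 RPM in oxidized *eggd-1*, against 177637 and 170299.6 RPM in untreated *eggd-1*, and were 63.3-fold lower. The 22G-RNAs, the abundant secondary siRNAs, summed to 10549 RPM in oxidized *eggd-1* against 377418 and 384796 RPM in untreated *eggd-1* (36.1-fold lower). Relative to piRNAs, the ratio was 809-fold lower for miRNAs and 461-fold lower for 22G-RNAs. Reads on transposon consensus sequences summed to 1131 RPM in oxidized *eggd-1* against 19161 and 18879.6 RPM in untreated *eggd-1*, 16.8-fold lower, although their ratio is 1.71 when scaled to reads other than piRNAs. The untreated libraries differed from each other by far less than any of these kinds differed after oxidation.

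**Figure D1:**
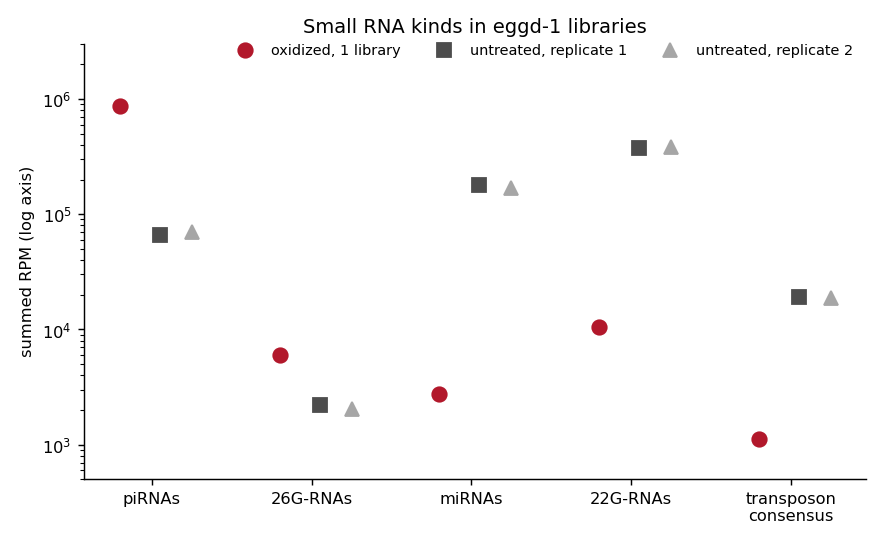
Summed RPM (log axis) of 5 small RNA kinds in the oxidized *eggd-1* library (red circles) and in untreated replicates 1 and 2 (squares and triangles). piRNAs (864314 RPM) and 26G-RNAs (6039.5 RPM) lie above both untreated libraries and the other 3 kinds lie below, although the transposon ratio turns to 1.71 when scaled to reads other than piRNAs.

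The order of the kinds was the same in wild type, where oxidized N2 over untreated *pgl-1::RFP* gave ratios of 14.5 for piRNAs, 7.17 for 26G-RNAs, 0.0681 for transposon reads, 0.0268 for 22G-RNAs and 0.0112 for miRNAs.

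Single entries were compared where the untreated *eggd-1* libraries had a mean of at least 10 reads, which left 18793 entries over all kinds. Of these, 6542 (34.8%) were at least 2-fold higher in oxidized *eggd-1* and 12237 (65.1%) at least 2-fold lower. The untreated libraries themselves were at least 2-fold apart for 574 entries (3.05%). Almost no entry lay between the bounds, and each kind fell mainly on 1 side. Of 6448 piRNA loci, 6442 were higher, 5 were lower and 1 was between. Of 213 miRNA arms, 9 were higher, 200 lower and 4 between. Of 11080 genes with 22G-RNAs, 0 were higher, 11075 lower and 5 between, and all 121 transposon consensus sequences were lower. The 26G-RNAs split, with 91 higher, 832 lower and 4 between among 927 entries. Scaled to reads other than piRNAs, 387 26G-RNA entries, 37 miRNA arms, 709 genes with 22G-RNAs and 30 transposon sequences would be at least 2-fold higher.

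**Figure D2:**
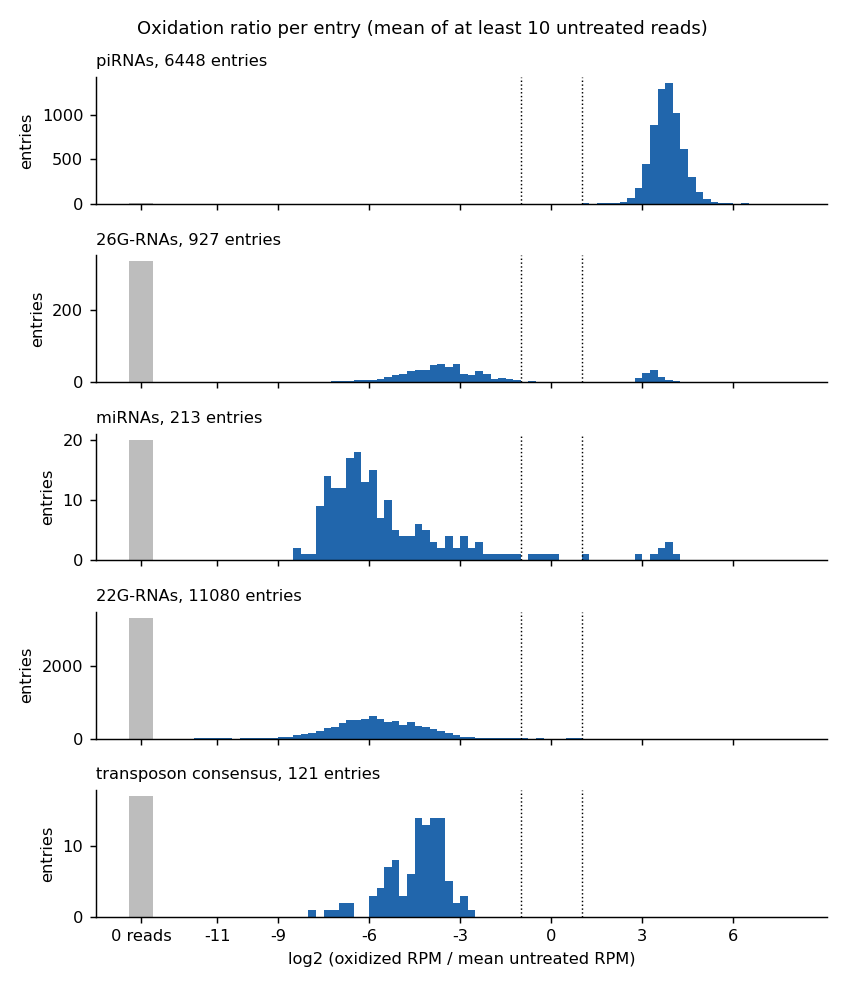
Number of entries by log2 oxidation ratio for each small RNA kind, with dotted lines at 2-fold lower and 2-fold higher and a grey bar for entries with 0 oxidized reads. piRNAs form 1 peak to the right and 26G-RNAs form a low group of 832 entries and a high group of 91, relative to genome-mapped reads; scaled to reads other than piRNAs, the whole axis shifts and the ratios above 0.0347 turn to above 1.

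Individual piRNA loci had much the same ratio. The median was 13.97 with quartiles of 11.3 and 17.4, and 6128 of the 6448 loci (95.04%) had ratios between 7 and 28. Over the range of abundance the median moved from 14.8 in the lowest decile of loci to 12.1 in the highest decile. The most abundant piRNA was 21ur-3730 (IV:14301789-14301809), with 8624 RPM in oxidized *eggd-1* against 946 and 1091 RPM in untreated *eggd-1*, a ratio of 8.47 ± 0.860. Of the 10 most abundant loci in the oxidized library, 8 were also among the 10 most abundant untreated loci. 21ur-1, often used as a probe for the class, had 56.2 RPM in oxidized *eggd-1* against 6.76 and 4.43 RPM in untreated *eggd-1* (10.03 ± 3.08). At these loci the oxidized value lay above both untreated values.

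More piRNA loci were detected in the oxidized library, which had the fewest genome-mapped reads of the 3 but the most piRNA reads. It had 16817385 piRNA reads, against 1432096.5 and 1639034.8 in the untreated libraries, so piRNA loci were sampled more deeply in it. The tables list 13994 loci, of which 13596 had a read in oxidized *eggd-1*, against 11486 and 11282 in untreated *eggd-1*. At least 10 reads were counted for 11132 loci in the oxidized library, against 6571 and 6384 in the untreated libraries. There were 1482 loci with oxidized reads and no untreated read, and 150 with the reverse. Another 248 loci were at 0 in all 3 libraries, and 7546 were under the minimum for a ratio, of which 7151 had oxidized reads.

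Chromosome IV carries the 2 large piRNA clusters, and medians lay close together across it. The median was 13.9 over 872 loci between 4.5 and 7 Mb, 14.01 over 5470 loci between 13.5 and 17.2 Mb, and 12.9 over 90 other loci of the chromosome. Plus and minus strand medians were 14.1 and 13.9. Over the passing loci of all chromosomes, those that the authors' files class as oogenic had a median of 14.3 over 1204 loci, those classed as spermatogenic had 14.04 over 2065 loci, and those with neither label had 13.7 over 3179 loci. All quartile ranges of these groups overlapped. Outside chromosome IV, 16 loci passed, with a median of 8.30, and all 329 such loci together had 268 RPM in oxidized *eggd-1* against 28.4 and 32.5 RPM in untreated *eggd-1* (8.80 ± 0.846).

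Few loci stood apart. The largest ratio among loci with at least 50 untreated reads was that of 21ur-2005 (IV:14587076-14587096), with 439 RPM in oxidized *eggd-1* against 2.06 and 2.56 RPM in untreated *eggd-1* (190 ± 29.6), followed by 21ur-7450 at 81.02 and 21ur-45 at 77.7. In wild type 21ur-2005 also had a ratio of 225. The smallest such ratio was that of 21ur-991 (IV:16543828-16543848), with 15.8 RPM in oxidized *eggd-1* against 8.09 and 7.55 RPM in untreated *eggd-1* (2.02 ± 0.0992), and it was also 2.02 in wild type.

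Only 6 passing loci were under 2-fold, and 4 of them lay outside chromosome IV. 21ur-12947 (X:13397505-13397525) had no oxidized read against 1.37 and 1.02 RPM in untreated *eggd-1*, at least 7.76-fold lower. 21ur-10824 (III) and 21ur-8285 (II) also had no oxidized read, and were at least 5.68-fold and 3.43-fold lower. 21ur-8602 (II) had 1 oxidized read, a ratio of 0.0434 with a counting interval of 0.00110 to 0.242. The others, 21ur-5347 and 21ur-1190 on chromosome IV, had ratios of 0.37 and 1.87 and fewer than 1 RPM in each library.

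Of these 6 loci, 3 lay antisense to genes with abundant 22G-RNAs, where a small RNA antisense to the gene reads as sense to the piRNA locus. The authors counted piRNA reads only if they began with T, and 22G-RNA reads only if they began with G or A. By these rules no read enters both counts. 21ur-12947 lies within F02C12.3, whose 22G-RNAs had 37.4 RPM in oxidized *eggd-1* against 1906 and 1926 RPM in untreated *eggd-1*. 21ur-8285 lies within linc-11 (22G-RNAs of 13.5 RPM in oxidized *eggd-1* against 755 and 842 RPM in untreated *eggd-1*), and 21ur-8602 within C01G6.10. Of all 6448 passing loci, 14 lay antisense to a gene with at least 100 untreated RPM of 22G-RNAs. These 14 had a median ratio of 10.9 and a range of 0 to 19.6. The 3 loci named here were those of the 14 under 2-fold, beside 6 of all 6448. This overlap was looked up after the values were seen, and its part in the low ratios was not tested.

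The 26G-RNAs fell into 2 well separated groups. The 91 higher entries had ratios from 5.202 to 16.6 with a median of 9.89, while the 832 lower entries had ratios of at most 0.5, and 336 of them had no oxidized read. The 4 entries between, *crt-1*, *ssp-35*, *cbd-1* and *ebp-2*, had ratios from 0.54 to 0.71 and at most 13 oxidized reads. The median over all 927 entries was 0.0481, or 0.139 with entries at 0 set to 3 reads. The 91 entries held 96.1% of the 26G-RNA RPM of oxidized *eggd-1* and 27.8% of that of untreated *eggd-1*. All 91 were also at least 2-fold higher in wild type.

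Of the class labels in the authors' files, ERGO1, for genes targeted through ERGO-1, marked only higher entries among those that passed. Its 54 genes summed to 1939 RPM in oxidized *eggd-1* against 204 and 215 RPM in untreated *eggd-1* (9.25 ± 0.325). All 31 that passed were higher, with ratios from 6.85 to 15.7 and a median of 9.58. Y105C5A.14, a pseudogene on chromosome IV, had 258 RPM in oxidized *eggd-1* against 21.2 and 27.0 RPM in untreated *eggd-1* (10.7 ± 1.85). Of the known ERGO-1 targets looked at by name, the 6 with 26G-RNA reads (K02E2.6, E01G4.5, E01G4.7, F39E9.7, H09G03.1 and W04B5.1) were all higher. For C40A11.10, also on that list, no 26G-RNA entry with reads was found under its name. K02E2.6 had 230 RPM in oxidized *eggd-1* against 23.7 and 23.4 RPM in untreated *eggd-1* (9.78 ± 0.0901), and E01G4.7 had 195 RPM in oxidized *eggd-1* against 21.9 and 23.8 RPM in untreated *eggd-1* (8.53 ± 0.521). H09G03.1 was the least abundant, at 8.58 RPM in oxidized *eggd-1* against 0.914 and 0.597 RPM in untreated *eggd-1* (11.4 ± 3.53). In each of these genes the oxidized value lay above both untreated values.

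Most higher entries did not carry the ERGO1 label. There were 60, of which 40 had no class label at all, and 2 of the 60 overlapped an ERGO1 gene. Their median ratio was 10.04. The most abundant without any label was linc-11 (II:3373169-3374185), a long intergenic noncoding RNA, with 307 RPM in oxidized *eggd-1* against 32.6 and 39.0 RPM in untreated *eggd-1* (8.58 ± 1.10). Y17D7C.3, a pseudogene of the MUT16 and oogenic classes, had 271 RPM in oxidized *eggd-1* against 26.1 and 24.9 RPM in untreated *eggd-1* (10.6 ± 0.364). T05E12.8, of the MUT16 and PRG1 classes, had 229 RPM in oxidized *eggd-1* against 22.8 and 20.7 RPM in untreated *eggd-1* (10.5 ± 0.714). The 88 higher entries with coordinates merged to 84 loci, 53 of them without an ERGO1 entry. Only overlapping entries were merged, so genes close beside an ERGO1 gene count among the 53. An example is H16D19.7 (I:12640720-12641501), beside the ERGO1 gene H16D19.4 (I:12641603-12642187) on the same strand.

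By gene type and chromosome, the counts of higher 26G-RNA entries can be set against the 9.82% (91 of 927) over all passing entries. Of the passing entries, 23 of 28 lincRNAs and 23 of 34 pseudogenes were higher, against 42 of 854 protein-coding genes and 3 of 11 transposable elements. On the X chromosome 17 of 20 passing entries were higher, whereas on the autosomes the counts were 7 of 207 on I, 13 of 157 on II, 15 of 160 on III, 19 of 235 on IV and 17 of 137 on V. Chromosomes II, III and IV lay near the share of all entries. Most of the higher X entries lie in a single stretch, from ZK402.5 (X:1398824-1401359) to F52D2.8 (X:1981900-1984833). Neighbouring entries there are counted apart, so the X count is not read as a trait of the whole chromosome.

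The ALG34 class, of genes targeted through ALG-3 and ALG-4 in sperm development, was lower in almost every entry. Of 694 that passed, 689 were lower, 3 between and 2 higher, and 270 had no oxidized read. The median ratio was 0.0398, or 0.116 with entries at 0 set to 3 reads, but it is 1.15 when scaled to reads other than piRNAs. *ssp-16*, a sperm-specific family member, had 1.23 RPM in oxidized *eggd-1* against 8.32 and 6.31 RPM in untreated *eggd-1* (0.169 ± 0.0333, above 1 relative to reads other than piRNAs). The genes for major sperm proteins (31 *msp* genes) summed to 1.84 RPM in oxidized *eggd-1* against 10.4 and 8.57 RPM in untreated *eggd-1*, and the 4 *msd* genes to 0.456 RPM in oxidized *eggd-1* against 11.7 and 9.30 RPM in untreated *eggd-1*, ratios of 0.194 and 0.0435 that also lie above 1 relative to reads other than piRNAs. Each of the 3 *msp* and 4 *msd* genes that passed was lower, beside 89.8% of all passing 26G-RNA entries. The 26G-RNAs of *alg-3* itself had no oxidized read against 2.06 and 1.51 RPM in untreated *eggd-1* (at least 11.6-fold lower), and those of *alg-4* were at least 5.79-fold lower.

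**Figure D3:**
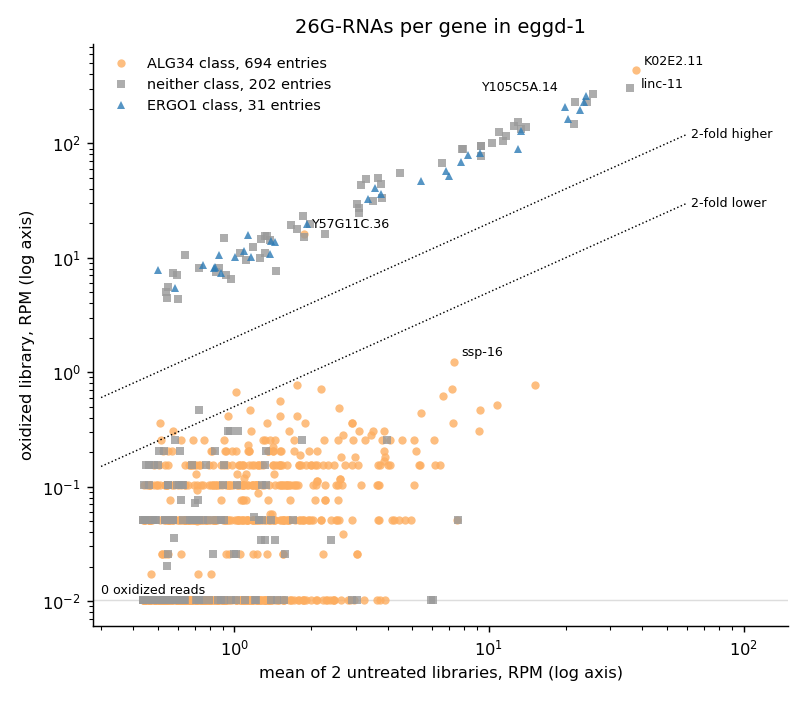
26G-RNAs of each passing gene in the oxidized *eggd-1* library against the mean of both untreated *eggd-1* libraries (RPM, log axes), coloured by class label, with dotted lines at 2-fold higher and 2-fold lower and genes with 0 oxidized reads on the grey line. All 31 ERGO1 entries lie in the upper band, and 2 of 694 ALG34 entries, K02E2.11 and Y57G11C.36, lie there too; the lower band stays apart from it under any scaling, but its ratios above 0.0347 turn to above 1 per read other than piRNAs.

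The summed ALG34 value rested on 1 gene. The class summed to 519 RPM in oxidized *eggd-1* against 1179.7 and 1048 RPM in untreated *eggd-1* (0.466 ± 0.0390). K02E2.11 (V:20383315-20384405), which also carries the MUT16 label, gave 83.6% of the oxidized sum, with 434 RPM in oxidized *eggd-1* against 36.1 and 39.5 RPM in untreated *eggd-1* (11.5 ± 0.717). Without it the class summed to 85.1 RPM in oxidized *eggd-1* against 1144 and 1009 RPM in untreated *eggd-1* (0.0791 ± 0.00704). K02E2.11 starts downstream of the ERGO1 gene K02E2.6 (V:20380561-20382036) on the same strand. The second higher entry, Y57G11C.36 (IV:14771415-14773781), had 16.2 RPM in oxidized *eggd-1* against 1.96 and 1.79 RPM in untreated *eggd-1* (8.65 ± 0.568), and it overlaps the ERGO1 gene Y57G11C.51 (IV:14773592-14774554) on the same strand. Scaled to reads other than piRNAs the class sum has a ratio of 13.4.

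Most other class labels held entries of both groups of 26G-RNAs, while HRDE1 and spermatogenic had no higher entry. Over all passing 26G-RNA entries 9.82% were higher. MUT16, for genes whose small RNAs depend on the Mutator focus protein MUT-16, had 39 higher of 93 passing entries and a summed ratio of 7.43 ± 0.0604. The oogenic label had 7 of 12 higher (7.94 ± 0.258), and entries without a label 40 of 55 (8.32 ± 0.0811). Among the labels of Argonaute targets, the counts were 11 of 45 for PRG1 (5.37 ± 0.0444), 15 of 150 for WAGO4 (2.17 ± 0.0460), 7 of 108 for CSR1 (0.697 ± 0.0215), 2 of 29 for WAGO1 (0.625 ± 0.0254) and 0 of 23 for HRDE1 (0.201 ± 0.00394), the last 3 of which are above 1 when scaled to reads other than piRNAs. The gender-neutral label had 13 of 121 (3.31 ± 0.0550). The shares for WAGO4, CSR1, WAGO1 and gender-neutral lie near that of all entries, so nothing is read from them about these labels. HRDE1 had only 23 passing entries, so little is read from its count of 0 either.

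Few genes carried several of these sums. In the CSR1 class the ERGO1 gene Y116F11A.1 gave 32.8% of the oxidized RPM, and in the WAGO1 class Y57G11C.51 gave 60.3%. Without these genes the ratios were 0.480 and 0.258. In the HRDE1 class H16D19.5 gave 32.3% of the oxidized RPM, and the ratio without it was not computed. The spermatogenic label, in which no entry was higher, summed to 63.6 RPM in oxidized *eggd-1* against 1122 and 994 RPM in untreated *eggd-1* (0.0601 ± 0.00516), though its ratio is 1.73 relative to reads other than piRNAs. Of its 663 passing entries 661 were lower and 2 lay between the bounds.

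The same genes had 22G-RNAs, so both kinds could be compared within a gene. On the 31 ERGO1 genes with passing 26G-RNAs, the 22G-RNAs summed to 74.0 RPM in oxidized *eggd-1* against 8933 and 8797 RPM in untreated *eggd-1* (0.0084 ± 9.08e-05), and all 31 were lower. The median ratio of these 22G-RNAs was 0.0061, with a range of 0.0016 (1.5 oxidized reads in ZK380.5) to 0.0777 (Y57G11C.51). The median 26G-RNA ratio was 1559-fold above the median 22G-RNA ratio of the same genes. K02E2.6 had 22G-RNAs of 6.63 RPM in oxidized *eggd-1* against 1387 and 1407 RPM in untreated *eggd-1* (0.0047), beside its 26G-RNA ratio of 9.78. Over the genes of all 91 higher 26G-RNA entries, the 22G-RNAs summed to 191 RPM in oxidized *eggd-1* against 23576 and 23465 RPM in untreated *eggd-1* (0.0081).

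**Figure D4:**
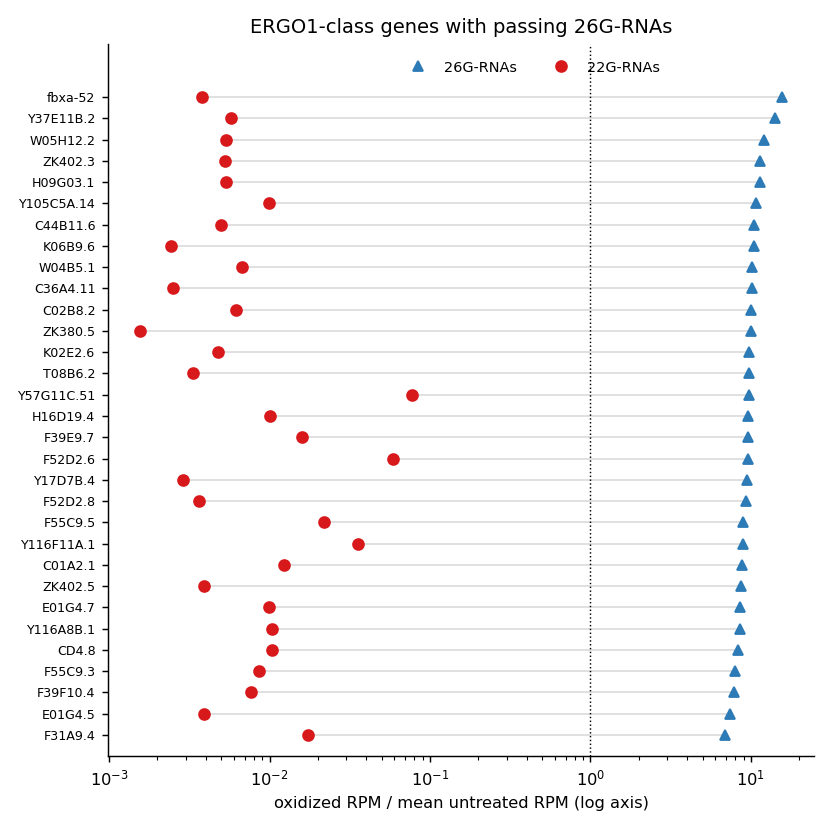
Oxidation ratio (oxidized over mean untreated RPM, log axis) of 26G-RNAs (blue triangles) and 22G-RNAs (red circles) for the 31 genes of the ERGO1 class with passing 26G-RNAs, ordered by 26G-RNA ratio. Every 26G-RNA ratio lies at or above 6.85 and every 22G-RNA ratio at or below 0.0777; scaled to reads other than piRNAs, only 22G-RNA ratios above 0.0347 turn to above 1.

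Relative to genome-mapped reads, the 22G-RNAs were lower in every class, to different degrees. By sums, the ERGO1 class was lowest at 0.0082 (122-fold lower), followed by CSR1 at 0.0175, ALG34 at 0.0187, oogenic at 0.0189 and gender-neutral at 0.0224. The WAGO4 class was at 0.0267 and PRG1 at 0.0297. At the upper end were unlabelled genes at 0.0344, HRDE1 at 0.0350, MUT16 at 0.0352, WAGO1 at 0.0379 and spermatogenic genes at 0.0401, of which the last 4 lie above 1 (at 1.01, 1.01, 1.09 and 1.15) when scaled to reads other than piRNAs. A gene can carry several labels, so these sums share reads.

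Of the 11080 genes, 3306 had no oxidized 22G-RNA read, so the order was also looked at in the 3077 genes with at least 500 untreated reads, a minimum chosen after the data were seen. Their median ratio was 0.0154 with quartiles of 0.0089 and 0.0292, 9 were above 0.1 and 10 were at 0. ERGO1 was again lowest with a median of 0.0064 over 44 genes, CSR1 had 0.0126 over 1791 and WAGO4 0.0143 over 2400. HRDE1 had 0.0261 over 593, MUT16 0.0324 over 1003 and the spermatogenic class 0.0329 over 202. By gene type, transposable elements had a median of 0.0486 over 199 entries, which is above 1 relative to reads other than piRNAs, and lincRNAs had 0.0053 over 23 entries, a 9.10-fold range. WBTransposon00000216 had 195 RPM in oxidized *eggd-1* against 2233 and 2131 RPM in untreated *eggd-1* (0.0895 ± 0.00299), again above 1 under that scaling. linc-22 on the X chromosome, the gene with the most untreated 22G-RNAs, had 12.02 RPM in oxidized *eggd-1* against 5743 and 5709 RPM in untreated *eggd-1* (0.0021).

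Single genes with high 22G-RNA ratios were rare. Y57G11C.57, a pseudogene (IV:14780940-14781266), had 26.5 RPM in oxidized *eggd-1* against 17.4 and 13.0 RPM in untreated *eggd-1* (1.74 ± 0.366), and linc-154 had 5.34 RPM in oxidized *eggd-1* against 3.71 and 3.33 RPM in untreated *eggd-1* (1.52 ± 0.116). In both the oxidized value lay above the untreated ones, by less than 2-fold. In wild type their ratios were 1.005 for Y57G11C.57 and 0.838 for linc-154. *cul-2*, a cullin of ubiquitin ligases, was the highest among genes with at least 500 reads, at 9.51 RPM in oxidized *eggd-1* against 40.1 and 39.9 RPM in untreated *eggd-1* (0.238 ± 0.00106), which is above 1 relative to reads other than piRNAs. The 14 genes of small RNA pathways looked at by name, among them *prg-1*, *ergo-1*, *henn-1*, *rde-1* and *dcr-1*, all had lower 22G-RNAs, as did 99.95% of all passing genes, and their summed ratio was 0.0184. For *eggd-1* itself 22G-RNAs were under the minimum, with 5 oxidized reads.

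miRNAs, which pair with target mRNAs in the soma and germ line, were lower in 200 of 213 passing arms, with a median ratio of 0.0132. Each of the 24 arms with at least 1000 untreated RPM was lower, with ratios from 0.0060 to 0.0616. miR-58a-3p, the most abundant and a member of the *bantam*-related family, had 504 RPM in oxidized *eggd-1* against 63176 and 58189 RPM in untreated *eggd-1* (0.0083 ± 0.000483). miR-1-3p of muscle had 95.1 RPM in oxidized *eggd-1* against 11136 and 11828 RPM in untreated *eggd-1* (0.0083 ± 0.000353). lin-4-5p, which times larval development, had 3.08 RPM in oxidized *eggd-1* against 451 and 301 RPM in untreated *eggd-1* (0.0082 ± 0.00240). The oxidized value lay far below both untreated values in each.

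Of all passing miRNA arms 93.9% were lower, so a family's count of lower arms says little about that family. The arms of *mir-35* to *mir-42*, which act in oocytes and embryos, were lower in 16 of 16 cases (summed ratio 0.0088), those of *mir-51* to *mir-56* in 12 of 12 (0.0145) and those of *mir-58*, *mir-80*, *mir-81* and *mir-82* in 8 of 8 (0.0080). Of *let-7* and its sisters *mir-48*, *mir-84* and *mir-241*, 6 of 7 passing arms were lower, and their sum had a ratio of 0.0120. The mirtrons, which bypass Drosha, were lower in 3 of 3 cases with a summed ratio of 0.162 ± 0.116. Their sum would be higher relative to reads other than piRNAs. It was 7.17 RPM in oxidized *eggd-1* against 62.8 and 25.7 RPM in untreated *eggd-1*. miR-62-3p alone gave 7.07 RPM in oxidized *eggd-1* against 56.0 and 19.5 RPM in untreated *eggd-1*. miR-1020-5p, with 0.5 oxidized reads, had a ratio of 0.0055, which is below 0.0347, with a counting interval up to 0.0515.

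The remaining 9 miRNA arms outside the bounds were at least 2-fold higher. They summed to 623 RPM in oxidized *eggd-1* against 52.1 and 50.2 RPM in untreated *eggd-1* (12.2 ± 0.329), and gave 22.7% of the miRNA RPM of oxidized *eggd-1* but 0.0294% of that of untreated *eggd-1*. They were 4.23% of the passing arms, against 34.8% of entries of all kinds. miR-240-5p was the most abundant, with 357 RPM in oxidized *eggd-1* against 28.8 and 30.4 RPM in untreated *eggd-1* (12.1 ± 0.471). miR-798-3p had the largest ratio, with 116 RPM in oxidized *eggd-1* against 6.92 and 5.63 RPM in untreated *eggd-1* (18.5 ± 2.73). miR-8202-5p had 56.0 RPM in oxidized *eggd-1* against 5.51 and 5.99 RPM in untreated *eggd-1* (9.74 ± 0.582). The remaining ratios were 14.9 for miR-84-3p, 14.7 for miR-232-5p, 13.6 for miR-4936-3p, 12.8 for miR-5549-3p, 6.74 for miR-78-3p and 2.36 for miR-358-3p. In wild type 8 of the 9 were also at least 2-fold higher, with a range of 1.57 to 19.4 over all 9. The hairpin of miR-78 overlaps 21ur-10414 and 21ur-9780 on the same strand, and none of the other 8 overlaps an annotated piRNA on its own strand. Overlap on the opposite strand was not looked at.

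In 3 of these hairpins both arms passed, and the arms lay on opposite sides. miR-84-3p had 15.3 RPM in oxidized *eggd-1* against 1.17 and 0.895 RPM in untreated *eggd-1* (14.9 ± 2.81), whereas miR-84-5p, the *let-7* sister itself, had 26.9 RPM in oxidized *eggd-1* against 1863 and 2059 RPM in untreated *eggd-1* (0.0137 ± 0.000975). miR-232-5p had 32.3 RPM in oxidized *eggd-1* against 2.33 and 2.07 RPM in untreated *eggd-1*, whereas miR-232-3p had 0.514 RPM in oxidized *eggd-1* against 31.7 and 21.4 RPM in untreated *eggd-1* (0.0193). miR-240-3p had 2 oxidized reads against 15.5 and 12.7 RPM in untreated *eggd-1*, a ratio of 0.0073 with a counting interval of 0.000884 to 0.0264. Both arms passed in 71 hairpins, and a fold between the arms' ratios could be formed where both arms had oxidized reads. Over these hairpins the median fold was 2.44, and 9 had arms at least 10-fold apart. Hairpins with an arm at 0 oxidized reads enter neither value.

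**Figure D5:**
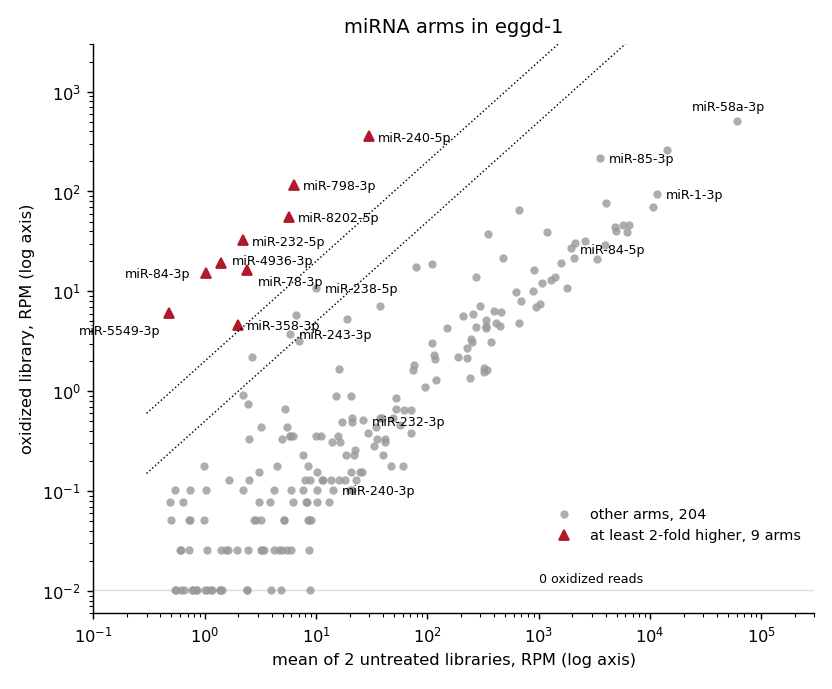
miRNA arms in the oxidized *eggd-1* library against the mean of both untreated *eggd-1* libraries (RPM, log axes), with dotted lines at 2-fold higher and 2-fold lower, arms at 0 oxidized reads on the grey line and the 9 arms at least 2-fold higher as red triangles. The 9 arms lie at untreated means of at most 29.6 RPM and the 24 arms of at least 1000 RPM all lie below the lower line; scaled to reads other than piRNAs, 37 arms in place of 9 would be at least 2-fold higher.

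Between the bounds lay 4 arms. miR-243-3p, which is known to be loaded largely into the Argonaute RDE-1, had 3.75 RPM in oxidized *eggd-1* against 6.83 and 4.84 RPM in untreated *eggd-1* (0.643 ± 0.160), and miR-243-5p had a ratio of 0.0234. miR-238-5p had 10.8 RPM in oxidized *eggd-1* against 11.9 and 8.10 RPM in untreated *eggd-1* (1.08 ± 0.302), within the range of the untreated libraries. miR-2214-3p and miR-1830-3p had ratios of 0.88 and 0.83. Of these 4 arms, all but miR-238-5p are below 1 here and above 1 relative to reads other than piRNAs.

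Transposon consensus sequences, counted in a separate alignment that can use the same reads again, were lower in all 121 cases relative to genome-mapped reads, but 30 would be at least 2-fold higher relative to reads other than piRNAs. The median over the 49 with at least 500 untreated reads was 0.0557, with quartiles of 0.0431 and 0.0727, and these ratios lie above 1 relative to reads other than piRNAs. The DNA transposon TC1 had 88.6 RPM in oxidized *eggd-1* against 1331 and 1313 RPM in untreated *eggd-1* (0.0670 ± 0.000629), with TC5 at 0.0753, Tc3 at 0.0620 and TC4 at 0.0458. The highest ratio was 0.152 ± 0.00269, for the long terminal repeat CER16-1-LTR_CE. CER3-I_CE, the internal part of a retrotransposon, had 65.2 RPM in oxidized *eggd-1* against 610 and 571 RPM in untreated *eggd-1* (0.110 ± 0.00519). CER7-I_CE was among the lowest, at 0.488 RPM in oxidized *eggd-1* against 127 and 120 RPM in untreated *eggd-1* (0.0039), and this one stays below 1 under either scaling. LINE2G_CE had no oxidized read and was at least 38.7-fold lower.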

How the data were processed

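Small RNAs of adult *C. elegans* were sequenced after treatment with the polyphosphatase PIR-1, in 1 oxidized and 2 untreated *eggd-1* libraries. The authors trimmed the reads with Trim Galore, collapsed them, removed structural RNA reads, aligned the rest to WormBase WS279 with Bowtie (0 mismatches, at most 1000 locations) and divided each read by its locations and overlapping features. Versions, and how reads were taken as 26G-RNAs, are not given in the sources used here. piRNA reads had to map uniquely, in sense, begin with T and start within 2 bases of the annotated 5′ end. 22G-RNA reads were antisense, 21 to 23 bases long and began with G or A. The deposited tables of the authors hold these expected counts and the same values in RPM per genome-mapped reads, whose number was recovered from their quotient. Between 79.5% and 83.4% of counts in the *eggd-1* libraries were whole.

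RPM was summed by kind and class label, and ratios were formed per entry where the untreated libraries had a mean of at least 10 reads. A missing entry was taken as 0. Higher and lower mean at least 2-fold. Intervals are exact at 95%. The ratio functions were tested on simulated data. Coordinates came from Ensembl release 115 (WBcel235), with matches for 100% of piRNAs, 96.4% of 22G-RNA and 95.6% of 26G-RNA entries, and from RefSeq for all 216 miRNA hairpins. Entries of miRNA precursors, which count miRNA reads again, entered no sum. The named items are the 10 most abundant entries of each kind in the oxidized and in the untreated libraries, the 5 largest and 5 smallest ratios among entries with at least 50 untreated reads, lists fixed by name, and the entries outside their kind's main group, which were chosen after their values were seen. Not all of these are named. Members and lists were chosen with earlier results of these data known. Alternatives were other totals for scaling, other filters, 1 read added, a 4-fold bound, Poisson intervals, the most abundant entry left out and each untreated library left out. Python 3.11.15 with pandas 2.3.3 was used.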

Additional observations from a re-analysis of the deposited data

Results flagged for a closer look

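In 3 class labels of the 26G-RNAs, the summed value in oxidized *eggd-1* lay below both untreated *eggd-1* libraries, whereas the sum in oxidized N2 lay above both untreated *pgl-1::RFP* libraries. The ratios were 0.466 in *eggd-1* and 1.76 in wild type for the ALG34 class, 0.697 in *eggd-1* and 2.68 in wild type for the CSR1 class, and 0.625 in *eggd-1* and 1.60 in wild type for the WAGO1 class. Scaled to reads other than piRNAs, all 3 *eggd-1* ratios lie above 1. These differences between genotypes were not tested, since each genotype had 1 oxidized library and the wild-type libraries came from different strains. In each class 1 gene gave a large share of the oxidized sum. Without K02E2.11 the ALG34 ratios were 0.0791 in *eggd-1* and 0.225 in wild type. Without Y116F11A.1 the CSR1 ratios were 0.480 in *eggd-1* and 1.65 in wild type, and without Y57G11C.51 the WAGO1 ratios were 0.258 in *eggd-1* and 0.402 in wild type. The untreated ALG34 sum was 1179.7 and 1048 RPM in *eggd-1* and 324 and 351 RPM in wild type, and the part of this difference in the ratios was not tested.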

How the results depend on the processing

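Over 76 results and 540 alternative values, 226 stayed within the spread of the untreated libraries (counts within 1.5 times) and 288 moved. The other 26 changed side of 1 from a main ratio of at least 2 or at most 0.5. Main ratios nearer to 1 that crossed it are counted as moved. Among them are the summed CSR1 and WAGO1 26G-RNA ratios when scaled to reads other than piRNAs. No paired analysis was possible because the oxidized group has 1 library. Scaled to all reads assigned to small RNAs, the summed ratios were 9.03 for piRNAs, 2.01 for 26G-RNAs, 0.0112 for miRNAs, 0.0196 for 22G-RNAs, 0.0421 for transposon sequences, 6.54 for ERGO1 and 0.329 for ALG34 26G-RNAs. Scaled to reads other than piRNAs they were 368, 81.8, 0.455, 0.798, 1.71, 267 and 13.4 in the same order, and the summed 26G-RNA ratios of the HRDE1 and spermatogenic classes were 5.79 and 1.73. The 22G-RNA sums of HRDE1, MUT16, spermatogenic and WAGO1 genes were then 1.01, 1.01, 1.15 and 1.09. Medians per entry that turned above 1 under that scaling were 1.39 for 26G-RNAs, 1.43 for transposon sequences and, within 26G-RNAs, 1.15 for ALG34, 2.32 for CSR1, 2.58 for gender-neutral, 1.34 for HRDE1, 4.00 for MUT16, 1.97 for PRG1 and 2.32 for WAGO4. With at least 50 untreated reads the 26G-RNA medians were 3.74 for CSR1, 10.003 for gender-neutral, 9.73 for MUT16, 8.78 for PRG1 and 8.75 for WAGO4, and with at least 10 reads over 3 libraries 8.49 for MUT16. With no filter the oogenic and unlabelled medians were 0, and without untreated replicate 1 the oogenic median was 0.603, against 8.57 without replicate 2.

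With the most abundant entry left out, the sums were 2.68 for 26G-RNAs, 0.0198 for miRNAs, 0.0281 for 22G-RNAs, 0.0613 for transposon sequences and 0.0791 for ALG34, which was 0.0795 without MUT16-labelled entries (an alternative chosen after seeing the data). Entries at least 2-fold higher numbered 12020 piRNAs, 301 26G-RNAs, 17 miRNAs and 31 22G-RNA genes with no filter, and 3440, 47 and 4 of the first 3 kinds with at least 50 untreated reads. Lower entries numbered 156 piRNAs, 5801 26G-RNAs, 306 miRNAs and 18141 22G-RNA genes with no filter, 0 piRNAs and 100 26G-RNAs with at least 50 reads, and 3 piRNAs with at least 10 reads over 3 libraries. Scaled to reads other than piRNAs, 387 26G-RNA entries, 37 miRNAs, 709 22G-RNA genes and 30 transposon sequences were higher and 3 piRNAs, 353 26G-RNA entries, 128 miRNAs, 6996 22G-RNA genes and 27 transposon sequences lower. Leaving out each untreated library gave 0 to 1 higher 22G-RNA genes. The 4-fold bound and Poisson intervals moved no count by over 1.5 times. Overlapping 26G-RNA entries, merged after seeing the data, left 87 higher.

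The oxidation was done once, so its own error is unknown. Counts of 0 limit single 26G-RNA and 22G-RNA entries, of which 336 and 3306 had no oxidized read. Terminal bases, GC content and upstream motifs of piRNA loci were not analysed here.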

Other observations

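The 22G-RNAs made against ribosomal RNA (risiRNAs) were nearly absent from the oxidized library, with 0.9 reads or 0.0463 RPM in oxidized *eggd-1* against 12.1 and 10.9 RPM in untreated *eggd-1*. Reads on miRNA precursors outside the annotated mature arms came to 240.7 RPM in oxidized *eggd-1* against 1265 and 1294 RPM in untreated *eggd-1*, which would be higher relative to reads other than piRNAs. Across the 6448 passing piRNA loci, Spearman's rho between oxidized and mean untreated RPM was 0.962, and 0.968 between the untreated libraries. These loci share libraries and are not independent replicates.

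Genes outside the ERGO1 label with 26G-RNAs higher after oxidation included neighbours of ERGO1 genes. H09G03.4 (III:3228439-3229446), a lincRNA, had 43.3 RPM in oxidized *eggd-1* against 3.15 and 3.16 RPM in untreated *eggd-1* (13.7 ± 0.00712), and it lies beside the ERGO1 gene H09G03.1 (III:3226514-3228057) on the same strand. F39E9.10, a pseudogene of the oogenic and MUT16 classes (II:3302761-3303750), had 154 RPM in oxidized *eggd-1* against 12.6 and 13.4 RPM in untreated *eggd-1* (11.9 ± 0.532), and it lies near the ERGO1 gene F39E9.7 (II:3306144-3307505) on the same strand. Both are among the 5 largest 26G-RNA ratios of entries with a mean of at least 50 untreated reads, their position was looked at after their values were seen, and whether such neighbours share transcripts was not tested.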
